A study of Mus musculus with 8 samples.

Results

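Histone genes were examined in sorted striatal neurons of R6/2 mice and of wild-type (WT) controls. The members were chosen by the gene name printed on the array: every non-control probe whose name begins with Hist1h to Hist4h, H2af or H3f3. The rule took 74 of 55681 non-control probes, with 60 gene names. Of these probes, 55 (49 names) belong to clustered histone genes and 19 (11 names) to replacement histone genes. The rule used names and no measured value, although the family was picked with earlier results of these data known.

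Medium spiny neurons (MSNs), which send the inhibitory output of the striatum, were sorted as Venus-positive, propidium iodide-negative cells from male mice aged 4 weeks. The R6/2;Scn4b-Venus group (4 arrays, here R6/2) carried the R6/2 transgene, a fragment of human HTT with an expanded CAG repeat that models Huntington's disease, and the WT;Scn4b-Venus group (4 arrays, here WT) did not. Both groups carried the Scn4b-Venus reporter, and Scn4b itself, whose reporter set the sort gate, had a mean level of 5.12 in R6/2 and 6.27 in WT (limma adjusted p = 0.552, on the log2 scale explained below). Each sample was hybridised to an Agilent array with 1 dye (Cy3). The labels give replicate numbers and do not say whether an array holds 1 mouse or a pool, so p-values measure the spread between these arrays.

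Checked against the labelled cell type, 13 of 13 measured MSN marker genes were well above background on all 8 arrays. Lists were read with 1 probe per gene. With that probe, all 13 had a negative difference, R6/2 minus WT (median -0.54 in log2 units, none past an adjusted p of 0.05, limma). Over all its tested probes, Foxp1 ran from -0.34 to +0.26. The mean level of the list was 4.87 to 5.15 in R6/2 and 5.39 to 5.78 in WT. Fewer cells of a type and less RNA per cell cannot be told apart in such samples. The mean level of 8 oligodendrocyte markers was -0.86 to 0.29 in R6/2 and -0.35 to 2.09 in WT, where WT replicate 2 was the highest array (1 of 8 positive, median difference -0.84, 0 past the adjusted test). By list, 5 of 7 astrocyte markers were positive (median +0.04, mean level -2.47 to -1.71 in R6/2 and -2.52 to -1.20 in WT), 4 of 7 microglia markers (+0.14, 0.31 to 1.11 in R6/2 and 0.15 to 1.28 in WT), 2 of 4 oligodendrocyte precursor markers (-0.20, -2.39 to -2.14 in R6/2 and -2.31 to -1.62 in WT), 2 of 6 endothelial and mural markers (-0.12, -2.60 to -1.68 in R6/2 and -2.89 to -1.48 in WT) and 2 of 5 interneuron markers (-0.33, -2.48 to -1.02 in R6/2 and -2.92 to -1.28 in WT). The groups overlapped in all 5 of these lists, and 0 of their genes passed the adjusted test. The markers of other cells detected on too few arrays to be tested were Gja1 (astrocytes), Pdgfra and Olig1 (oligodendrocyte precursors), P2ry12 (microglia), Pdgfrb and Rgs5 (mural cells), on 0 R6/2 arrays and 1 or 2 WT arrays each, and Chat (interneurons) and Top2a (dividing cells), on 1 and 2 R6/2 arrays and 0 WT arrays. Of 9 progenitor and neuroblast markers 8 were tested, 5 with a positive and 3 with a negative difference (median +0.20), and their mean level was -0.12 to 0.49 in R6/2 and -0.35 to 0.53 in WT. Dcx had the smallest p of the list, with a mean level of 1.86 in R6/2 and 0.68 in WT (limma adjusted p = 0.485). Dlx1 ran the other way with 1 probe (-1.16) and stood at +0.16 with its other, and 0 of the list passed the adjusted test. The part of these markers in the histone results was not tested.

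Histones are the proteins around which nuclear DNA is wound. A core particle holds H2A, H2B, H3 and H4, and the linker histone H1 binds where DNA enters and leaves it. Most core histone genes lie in clusters, are transcribed in bulk in dividing cells during DNA replication, and give mRNAs that end in a stem-loop in place of a poly(A) tail. Replacement histones such as H2A.Z and H3.3 are made from single genes with polyadenylated mRNAs throughout the cell's life, and are an important supply in neurons, which no longer divide. Some clustered genes also give polyadenylated mRNAs in cells that have left the cycle.

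Because clustered histone genes are near copies of one another, the probe letters decide what a value can be credited to. Each probe is 60 bases long. Among the 74 probes, 31 pairs shared a run of at least 20 bases. The largest such set held 8 H2A probes near the end of the coding sequence, those of Hist1h2ah, Hist1h2af, Hist1h2ag, Hist1h2ak, Hist1h2an, Hist2h2aa2, Hist2h2ac and the replacement gene H2afj. Printed here are 5 of these that end in a stop codon and align to each other without a gap, with capitals marking each base that differs from the Hist1h2ah probe in the aligned stretch.
Hist1h2ah: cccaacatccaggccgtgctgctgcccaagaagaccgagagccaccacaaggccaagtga
Hist1h2af: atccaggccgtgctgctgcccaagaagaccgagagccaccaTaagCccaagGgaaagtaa
Hist1h2ak: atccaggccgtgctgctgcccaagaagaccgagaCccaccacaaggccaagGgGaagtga
Hist1h2an: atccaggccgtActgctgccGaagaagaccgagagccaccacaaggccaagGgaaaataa
Hist2h2aa2: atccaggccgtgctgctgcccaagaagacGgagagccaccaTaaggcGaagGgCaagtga
The 4 others matched the Hist1h2ah probe at 49 to 51 of 54 aligned bases (90.7 to 94.4%). Counted from the 5′ end of the Hist1h2ah probe, T58G stands in all 4 of them. The file lists the Hist1h2ah probe for 4 RefSeq genes, so that its signal belongs to several loci of chromosome 13.

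The H4 probes with the smallest p-values came from the start of the coding sequence. They are shown since the results turn on 3 of them, while the probe of Hist1h4c from the same stretch ran the other way. Capitals mark each base that differs from the Hist1h4j probe.
Hist1h4j: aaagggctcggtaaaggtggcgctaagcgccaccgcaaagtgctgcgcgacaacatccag
Hist1h4c: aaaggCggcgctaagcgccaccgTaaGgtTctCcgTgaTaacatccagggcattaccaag
Hist1h4d: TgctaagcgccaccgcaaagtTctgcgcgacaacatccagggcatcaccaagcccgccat
Hist1h4k: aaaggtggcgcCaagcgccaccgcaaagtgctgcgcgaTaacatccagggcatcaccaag
The Hist1h4d and Hist1h4k probes matched the Hist1h4j probe at 38 of 40 and at 46 of 48 aligned bases, by C21T and G42T and by T24C and C51T, counted from the 5′ end of the Hist1h4j probe. The Hist1h4c probe matched at 41 of 48 aligned bases, with its 7 differences scattered over the stretch. The Hist1h4j probe is also listed for the gene now named H4c12 (Hist1h4k), the Hist1h4d probe for H4c11 (Hist1h4j) and H4c2, and the Hist1h4k probe for H4c2. The 3 probes are therefore not separate observations.

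The histone stem-loop, the mark of mRNAs without a poly(A) tail, was found in 6 probes of the whole array, and all 6 were histone probes. They are shown because they read the very end of the replication-type mRNA. Capitals mark the stem and loop, with the flanks in lower case.
Hist2h2aa1: taaaaaGGCTCTTTTCAGAGCCacccact
Hist2h2bb: cccaaaaGGCTCTTTTCAGAGCCacttta
Hist1h3a: aaccaaaGGCTCTTTTCAGAGCCaca
Hist1h3g: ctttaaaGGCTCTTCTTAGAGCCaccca
Hist1h3i: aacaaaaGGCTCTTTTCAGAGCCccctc
Hist1h4m: aactaaaGGCCCTTTTCAGGGCCatccaa
Of these 6 probes, Hist2h2aa1 and Hist1h3i were well above background on 8 of 8 arrays. Hist2h2bb was so on 4 R6/2 arrays and 3 WT arrays, and Hist1h4m on 2 R6/2 arrays and 3 WT arrays. Hist1h3a and Hist1h3g were so on 1 R6/2 array and 0 WT arrays each. The labels name the Agilent standard protocol for labelling and do not say with which primer it starts.

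The array gave a signal above background for most histone genes, with R6/2 arrays at or above the WT arrays in number. A probe was counted as detected where the scanner software marked it well above background. Histone probes detected numbered 67, 69, 69 and 67 of 74 on R6/2 replicates 1 to 4, against 54, 67, 64 and 66 on WT replicates 1 to 4. The means were 68.0 ± 1.15 probes in R6/2 and 62.8 ± 5.97 in WT (SD, n = 4 each), a difference of 5.25 probes. WT replicate 1 was the low array, and WT replicate 2 matched the lowest R6/2 arrays.

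The same array was low over all probes. Detected probes made up 74.0%, 75.8%, 75.4% and 78.8% of all probes on the R6/2 arrays, against 50.1%, 76.2%, 67.7% and 72.2% on the WT arrays. The lowest log2 level that was called well above background was -4.96 to -5.56 on R6/2 arrays, and on WT arrays -2.78 for replicate 1 and -4.29 to -5.43 for the others. Of the histone probes, 8 were detected on every array but WT replicate 1, namely those of H2afb1, Hist1h2bg, Hist1h3f, Hist1h4h, Hist1h4j, Hist2h2bb, Hist2h3c2-ps and Hist3h2bb-ps. Without WT replicate 1 the difference in detected histone probes was 2.33, and within the first slide, which leaves out R6/2 replicate 4, it was 5.58. The share of probes detected moved with the histone count, and its part was not tested.

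By class, the gap in detection was widest for H2B. All 14 H2A replacement probes were detected on each R6/2 array, against 13 on WT replicate 1 and 14 on the other WT arrays. All 5 H3.3 probes were detected on each R6/2 array, against 4, 5, 4 and 5 on the WT arrays. Both kinds are thus read on nearly every array. Of 12 H2B probes, 12, 11, 12 and 11 were detected on the R6/2 arrays, against 7, 10, 10 and 10 on the WT arrays. The groups did not overlap in this count, WT replicate 1 being the lowest. This rests on Hist1h2bq, detected on 4 of 4 R6/2 arrays and 0 of 4 WT arrays. Without that probe the lowest R6/2 count and the highest WT count are equal. Of 8 H3 probes, 6, 7, 7 and 6 were detected on R6/2 arrays, against 4, 6, 6 and 6 on WT arrays. H4 probes numbered 12, 14, 14 and 13 of 14 on R6/2 arrays, against 10, 14, 13 and 14 on WT arrays, and here the groups overlapped. H2A probes numbered 13, 13, 12 and 13 of 15 on R6/2 arrays, against 12, 13, 13 and 12 on WT arrays, and H1 probes 5 of 6 on each R6/2 array, against 4, 5, 4 and 5.

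In all, 54 histone probes were detected on 8 of 8 arrays and 3 on none, those of the linker histone Hist1h1d and of Hist1h2ae and Hist2h2ab. A further 3 were detected on too few arrays to be tested: Hist1h2bp on 2 R6/2 arrays and 0 WT arrays, and Hist1h3a and Hist1h3g on 1 R6/2 array and 0 WT arrays each. The test took probes detected on at least 4 of 8 arrays, which left 68 of the 74, 49 clustered and 19 replacement. A probe that entered only through the genotype where it was detected had to differ in that direction.

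No histone probe passed the test between genotypes. Levels are the log2 of the processed intensity minus the array's 75th percentile, and differences are R6/2 minus WT. At an adjusted p under 0.05 (limma over all 41378 tested probes) 0 of 68 histone probes were called in either direction, where the background was 1 probe higher (0.00242%) and 0 lower (0%). The lowest adjusted p among histone probes was 0.308. By the unadjusted p under 0.05, 8 were higher (11.8% of the 68, background 3.97%) and 0 were lower (background 3.05%). With the test limited to probes detected on all 8 arrays, 3 of 54 were higher (background 3.09%) and 1 was lower (background 4.9%). Of the 8, Hist1h2bq was detected on no WT array and passed the filter only through R6/2, and without it 7 of 67 were higher. The 7 include Hist1h4j, Hist1h4d and Hist1h4k, whose probes share sequence and are not separate observations. Without WT replicate 1 the counts were 5 higher (background 3.82%) and 0 lower (background 3.39%), and without R6/2 replicate 1 they were 5 higher (background 3.66%) and 2 lower (background 2.48%). With median scaling they were 5 higher and 1 lower, where the whole array had 1162 higher and 1828 lower in place of 1642 and 1262, and with normexp background correction 7 higher and 2 lower, where it had 1246 and 1679.

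The 4 R6/2 arrays lay above the 4 WT arrays for 6 histone probes (8.82%, background 2.31%) and below them for 1 (1.47%, background 2.26%). The 6 were Hist1h2bq, Hist1h4j, Hist1h4d, Hist1h4k, Hist1h3f and Hist2h3c1, and the 1 was Hist1h2bb. Leaving out 1 array at a time gave 7 to 10 higher and 1 to 3 lower, with backgrounds of 3.76 to 5.13% and 3.26 to 4.47%. Of the 6, Hist1h2bq had to differ by the filter, and without it 5 are left. These 5 still count the 3 H4 probes singly, though they share sequence and are not separate observations.

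By sign alone, 48 of 68 histone probes had a positive difference (70.6%, background 55.5%), with a median of +0.14 against +0.05 over all tested probes. The clustered probes stood at a median of +0.18 with 37 of 49 positive, and the replacement probes at +0.06 with 11 of 19 positive. By class the medians were +0.14 for H1 (5 probes), +0.13 for H2A (13), +0.30 for H2B (11), +0.45 for H3 (6) and +0.26 for H4 (14), and -0.13 for H2A replacement (14) and +0.32 for H3.3 (5). All 6 H3 and all 5 H3.3 probes were positive, 12 of 13 H2A probes were, and in H4 9 of 14. Some H2A, H3 and H4 probes share sequence and the 5 H3.3 probes read 2 genes, so that these counts hold values that are not separate observations. With median scaling the clustered median was +0.08 while that of all probes was -0.05. Both scalings subtract a constant from each array, so the gap of +0.13 between them had to stay and is no check. Under normexp the H3 median was +0.20. Within the first slide the medians were +0.17 for clustered and +0.10 for replacement probes, and without WT replicate 1 they were +0.17 and +0.08. None of these medians was tested.

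The clustered H2B genes gave the widest range of differences of any class, and the top 2 of all histone probes. H2B pairs with H2A in the core particle. The probe of Hist1h2bq (A_52_P559748, chromosome 13, 21929214 to 21929273 on mm9) had levels of -3.46, -2.62, -1.92 and -3.04 on R6/2 arrays, against -4.74, -7.19, -6.30 and -6.86 on WT arrays. It was detected on 4 of 4 R6/2 arrays and 0 of 4 WT arrays, as were 121 of all probes (0.217%). All R6/2 arrays lay above all WT arrays, and the WT values are not well above background.

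Set against the mean of the dimmest detected levels of the WT arrays, Hist1h2bq was at least 3.03-fold higher in R6/2 (limma adjusted p = 0.308). On WT replicate 1 that dimmest level was -2.78, about the R6/2 mean of -2.76. R6/2 replicates 1 and 4 (-3.46 and -3.04) lay below it, so the bound rests on the other WT arrays. The processed intensity of Hist1h2bq was 28.6 to 97.3 units on R6/2 arrays and 2.35 to 13.2 on WT arrays. The probe entered the test only through the R6/2 arrays. Its fitted difference rests on WT values that are not well above background, and is no measure of size: +3.51, or +0.74 with normexp, whose offset lessens differences of dim probes (adjusted p = 0.343). The adjusted p was 0.120 without WT replicate 1 and 0.600 within the first slide. The probe starts 1935 bases into its transcript, far beyond the short coding sequence, and is listed for a second RefSeq gene (H4bc24, earlier Hist1h2br).

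Hist1h2bg (A_55_P2109152, chromosome 13, 23663823 to 23663882 on mm9) had levels of -0.80, -0.26, -1.60 and -0.78 on R6/2 arrays, against -4.22, -1.47, -3.10 and -3.66 on WT arrays. The groups overlapped by a single pair, since WT replicate 2 lay above R6/2 replicate 3. The difference was +2.25 ± 0.57 (SE, limma adjusted p = 0.552), and +1.18 with normexp. This probe too starts late, 554 bases into the transcript. The probe of Hist2h2bb, named here after its values were seen because it holds a stem-loop, had levels of -1.92, -1.51, -1.69 and -2.87 on R6/2 arrays, against -4.44, -3.11, -3.09 and -2.43 on WT arrays (+1.27 ± 0.47, SE, limma adjusted p = 0.670).

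Hist1h2bb was the histone probe with the lowest difference, and ran the other way. Its levels were -1.32, -1.40, -1.71 and -2.73 on R6/2 arrays, against -1.08, -0.78, -1.12 and -1.26 on WT arrays. All R6/2 arrays lay below all WT arrays, with R6/2 replicate 4, alone on the second slide, the lowest. The difference was -0.73 ± 0.33 (SE, limma adjusted p = 0.711) and within the first slide -0.42. Hist3h2ba, another H2B gene, stood at -0.51 (-0.75 to -1.65 in R6/2, -0.55 to -1.08 in WT).

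The H2B probes named for their level differed less. Hist1h2bc stood at -0.30 (0.81 to 1.84 in R6/2, 1.21 to 2.32 in WT), and its probe starts 632 bases into the transcript. Hist1h2ba, known as a testis histone, stood at +0.35 (0.92 to 1.46 in R6/2, 0.64 to 1.05 in WT). Hist1h2bm stood at +0.30 (0.65 to 1.17 in R6/2, 0.62 to 0.83 in WT), and its probe is listed for 4 RefSeq genes. Groups overlapped for all 3.

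H4, the partner of H3 in the tetramer at the heart of the core particle, held 3 of the 7 probes with separate groups (background 2.31% above and 2.26% below), and these 3 share sequence and are not separate observations. Hist1h4j (chromosome 13, 21826989 to 21827048 on mm9) had levels of -1.61, -1.38, -1.56 and -1.62 on R6/2 arrays, against -2.89, -2.40, -2.38 and -2.34 on WT arrays. The R6/2 arrays lay close together and all stood above the WT arrays, of which replicate 1 was lowest. The difference was +0.96 ± 0.20 (SE, limma adjusted p = 0.453). It was +0.53 with normexp, and +0.83 without WT replicate 1.

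Hist1h4d had levels of 2.24, 1.80, 2.04 and 1.96 on R6/2 arrays, against 1.43, 1.43, 1.03 and 1.39 on WT arrays (+0.69 ± 0.20, SE, limma adjusted p = 0.573). The first Hist1h4k probe (A_55_P2091147) had 0.32, 0.22, -0.16 and 0.12 on R6/2 arrays, against -0.55, -0.33, -0.59 and -0.31 on WT arrays (+0.57 ± 0.19, SE, limma adjusted p = 0.643). In both, every R6/2 array stood above every WT array. These are the probes printed above that match Hist1h4j at nearly every aligned base. Within the first slide the differences were +0.99 for Hist1h4j, +0.71 for Hist1h4d and +0.57 for Hist1h4k.

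Other H4 probes did not separate the groups. The other Hist1h4k probe, listed for 4 RefSeq genes, stood at +0.28 (3.43 to 4.04 in R6/2, 3.12 to 3.71 in WT). Hist2h4 stood at +0.31 with 1 probe (2.00 to 2.55 in R6/2, 1.62 to 2.09 in WT). Hist1h4c stood at -0.41, with levels of -2.86, -1.96, -0.76 and -0.86 on R6/2 arrays and -0.48, -0.99, -1.12 and -2.21 on WT arrays, and its groups overlapped throughout.

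Probes of 1 H4 gene did not always read alike. The 3 Hist1h4i probes stood at -0.03, +0.14 and +0.24. The first of them (A_55_P2174198, which the file places nowhere on mm9) had levels of 6.68 to 7.11 in R6/2 and 6.80 to 7.05 in WT, with overlapping groups. The file lists it for Hist1h4i, a probe of the opposite strand shares at least 20 bases with it, and its target is in doubt. The 2 Hist4h4 probes stood at +0.27 (0.23 to 0.54 in R6/2, -0.24 to 0.40 in WT) and at -0.55, where the probe was detected on 3 R6/2 arrays and 2 WT arrays.

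H3, whose tail carries many regulatory marks, gave small positive differences at every tested probe. Hist1h3f had levels of -1.70, -2.11, -2.46 and -2.38 on R6/2 arrays, against -2.68, -2.63, -2.68 and -2.65 on WT arrays. The R6/2 arrays all stood higher, replicates 3 and 4 by the least (+0.50 ± 0.22, SE, limma adjusted p = 0.708, and +0.20 with normexp). Hist2h3c1, listed for 3 RefSeq genes, had levels of -1.37, -1.49, -1.52 and -1.09 on R6/2 arrays, against -1.53, -1.53, -1.65 and -1.85 on WT arrays (+0.27 ± 0.19, SE, limma adjusted p = 0.804). The groups were only just apart, at R6/2 replicate 3 and WT replicates 1 and 2. Hist1h3d, listed for 4 RefSeq genes, stood at +0.51 (1.36 to 2.17 in R6/2, 1.04 to 1.49 in WT), and Hist1h3c at +0.41 (-0.52 to -1.30 in R6/2, -1.25 to -1.50 in WT), with overlapping groups. The probes of Hist1h3c and Hist1h3f share a run of 36 bases, so that their values are not separate observations.

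Clustered H2A probes lay close together. Of 13 tested, the 7 that belong to the set sharing the end of the coding sequence stood at +0.07 to +0.15, and H2afj, the eighth of the set, at +0.13. For Hist1h2ah the levels were 2.91, 2.93, 3.28 and 2.95 on R6/2 arrays, against 2.75, 2.71, 3.11 and 2.92 on WT arrays (+0.15 ± 0.19, SE, limma adjusted p = 0.904). R6/2 replicate 3 and WT replicate 3 were the highest of their groups. Hist2h2ac, of the same set, stood at +0.13. Since the probes of this set share runs of sequence, their values are not separate observations.

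H2A probes outside that set ranged more widely. Hist1h2ac stood at +0.75, with levels of -1.98, -1.44, -1.58 and -1.67 on R6/2 arrays and -2.67, -1.27, -3.08 and -2.65 on WT arrays, where WT replicate 2 was the highest of the 8 (SE 0.38, limma adjusted p = 0.746). Hist2h2aa1, whose probe holds the stem-loop, stood at +0.46 (0.40 to 1.64 in R6/2, -0.13 to 1.22 in WT). Hist3h2a, from the small cluster on chromosome 11, stood at +0.12. Hist1h2aa, a testis-type gene, was the single negative one at -0.01.

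The linker histones H1 did not separate the groups. Hist1h1c, a widely expressed linker histone, had levels of 2.00, 1.87, 1.93 and 1.70 on R6/2 arrays, against 2.53, 2.56, 1.53 and 1.68 on WT arrays (-0.20 ± 0.29, SE, limma adjusted p = 0.912). WT replicates 1 and 2 were the highest of the 8. Hist1h1a stood at +0.14, Hist1h1b at -0.16, and Hist1h1e at +0.64 with 2 of 4 WT arrays detected (-1.61 to -3.72 in R6/2, -2.50 to -4.45 in WT).

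Replacement H2A probes were split, 6 positive and 8 negative, with overlapping groups at all 14. H2afz, which encodes H2A.Z of gene starts and enhancers, had levels of 4.59, 4.44, 4.62 and 4.64 on R6/2 arrays, against 4.56, 4.78, 4.62 and 4.76 on WT arrays (-0.10 ± 0.17, SE, limma adjusted p = 0.925), and its other probe stood at -0.19. The related H2afv stood at 0.00 and -0.42 with its 2 probes. H2afx, which encodes the H2A.X that is phosphorylated at DNA breaks, had levels of 0.35, 0.14, 0.76 and 0.92 on R6/2 arrays, against 1.50, 0.89, 0.60 and 1.14 on WT arrays. Its groups overlapped (-0.49 ± 0.27, SE, limma adjusted p = 0.764), and without WT replicate 1 the difference was -0.33.

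Of the macroH2A genes, whose products carry a large extra domain, H2afy stood at -0.59, -0.37 and -0.15 with its 3 probes, H2afy2 at +0.16 and H2afy3 at +0.11. The first H2afy probe had levels of -0.45 to -1.87 in R6/2 and 0.15 to -1.15 in WT, with wide overlap. H2afj stood at +0.13 and +0.06. The genes named H2afb, known from testis, stood at +0.56 (H2afb1, now named H2al2a, detected on 3 of 4 WT arrays) and -0.21 (H2afb2-ps).

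H3.3, the H3 that is placed outside DNA replication, comes from 2 genes that encode the same protein. H3f3b had levels of 4.22, 4.27, 4.46 and 4.57 on R6/2 arrays, against 3.61, 3.81, 3.79 and 4.27 on WT arrays. WT replicate 4 lay above R6/2 replicate 1 and equalled R6/2 replicate 2, and the other WT arrays were lower than all R6/2 arrays (+0.51 ± 0.21, SE, limma adjusted p = 0.704). Its other probes stood at +0.25 and +0.69, the last detected on 2 of 4 WT arrays. H3f3a stood at +0.10 with 1 probe (5.67 to 5.85 in R6/2, 5.51 to 5.78 in WT) and at +0.32 with its other, where WT replicate 2 was the low array at 1.41.

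The other tested histone probes, which the naming rule leaves out, were Hist1h1t (+0.14), Hist1h2ab (+0.27), Hist1h2be (+0.14), Hist2h2be (+0.68), Hist3h2bb-ps (-0.60), Hist1h3i (+0.25), Hist2h3c2-ps (+0.67), Hist1h4h (-0.12), Hist1h4m (-0.61), the other Hist2h4 probe (+0.36) and a Hist1h2ak probe at the start of the coding sequence (+0.18). Their limma adjusted p ran from 0.779 to 0.962, with overlapping groups.

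Position of the probe in the transcript bears on which mRNA form it can read, and the differences were set out by it. Among clustered core histone probes, 13 start at least 500 bases into the transcript, beyond the coding part of such short genes. Of these, 11 were tested, with 8 positive and a median of +0.14. Of the 36 that start earlier, 33 were tested, with 26 positive and a median of +0.25. Both kinds hold probes with positive and negative differences, and no test was made between them.

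Differences were also set out by how many RefSeq genes the file lists for a probe. Of 14 clustered probes listed for 2 or more genes, 14 were tested and 13 had a positive difference (median +0.27). Of 41 listed for fewer, 35 were tested and 24 were positive (median +0.14). Nothing was tested between the 2 kinds, and 8 of the 14 share at least 20 bases with another probe of the 14.

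Promoters were read from RefSeq (GRCm38.p6), 250 bases before to 50 after the start of each gene. Of 58 current symbols among the members, 51 had a window there (52 windows). Motifs searched on both strands were the octamer ATTTGCAT, bound by the Oct1 factor at H2B genes, the TATA motif TATAAA and the CCAAT motif. Windows of 4 genes, chosen after their values were seen, are shown. Capitals mark the motifs, with ATTGG the CCAAT motif on the opposite strand. The first pair shows the 2 H2B genes at the top of the list (Hist1h2bg at chr13:23571150-23571449, plus strand, and Hist1h2bq at chr13:21810150-21810449, minus strand), and the second pair the 2 H4 genes of the near-identical probes Hist1h4j and Hist1h4k (Hist1h4j at chr13:21734784-21735083, plus strand, and Hist1h4k at chr13:21750504-21750803, minus strand).
Hist1h2bg: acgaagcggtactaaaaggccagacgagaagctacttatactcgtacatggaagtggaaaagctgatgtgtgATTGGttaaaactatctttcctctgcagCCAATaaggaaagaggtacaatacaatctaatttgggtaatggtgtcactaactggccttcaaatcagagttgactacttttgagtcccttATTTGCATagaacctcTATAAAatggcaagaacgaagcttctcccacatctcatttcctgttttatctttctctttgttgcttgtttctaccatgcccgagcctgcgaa
Hist1h2bq: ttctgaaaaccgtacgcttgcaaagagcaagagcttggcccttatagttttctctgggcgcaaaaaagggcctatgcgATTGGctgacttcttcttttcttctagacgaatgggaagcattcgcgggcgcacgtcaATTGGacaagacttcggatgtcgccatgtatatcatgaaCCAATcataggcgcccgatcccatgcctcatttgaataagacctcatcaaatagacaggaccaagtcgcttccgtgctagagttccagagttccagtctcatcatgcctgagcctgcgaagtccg
Hist1h4j: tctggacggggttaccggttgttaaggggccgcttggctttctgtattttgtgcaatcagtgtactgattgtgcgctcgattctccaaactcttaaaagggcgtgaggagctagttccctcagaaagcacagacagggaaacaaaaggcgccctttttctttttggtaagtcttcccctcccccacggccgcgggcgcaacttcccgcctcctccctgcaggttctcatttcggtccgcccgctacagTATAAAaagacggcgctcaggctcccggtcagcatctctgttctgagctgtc
Hist1h4k: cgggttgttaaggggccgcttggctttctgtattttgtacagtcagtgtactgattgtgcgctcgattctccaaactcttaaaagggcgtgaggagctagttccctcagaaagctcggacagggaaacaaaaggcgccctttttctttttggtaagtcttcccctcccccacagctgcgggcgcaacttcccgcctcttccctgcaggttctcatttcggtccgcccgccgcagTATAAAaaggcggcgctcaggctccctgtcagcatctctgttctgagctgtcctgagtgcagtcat
The Hist1h2bg window holds all 3 motifs, while of these letters the Hist1h2bq window holds CCAAT alone. The 2 H4 windows hold TATAAA alone, and at a shift of 14 bases they were equal at 274 of 286 aligned bases (95.8%).

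Over the family, the octamer stood in 6 of 10 H2B windows and 7 of 14 H2A windows, in 0 of 6 H1, 0 of 6 H3 and 0 of 8 H4 windows, and in 1.74% of all 32851 windows. TATAAA stood in 5 of 8 H4 windows, 10 of 14 H2A windows and 0 of 6 H2A replacement windows, against 13.6% of all. CCAAT stood in every H1, H2A, H2B and H3 window, in 2 of 8 H4 windows, and in 37.4% of all. A match is a stretch of letters and not a measured binding site.

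Genes that make and place histones were split in sign. Of 13 tested genes for histone mRNA transcription and processing, 6 had a positive and 7 a negative difference (median -0.04), and 0 passed the adjusted test. Slbp, which binds the stem-loop, stood at +0.58 (-1.33 to 0.45 in R6/2, -2.39 to -0.58 in WT, limma adjusted p = 0.842). Casp8ap2, needed for histone mRNA output in S phase, stood at +0.54 and Cstf2, of the cleavage machinery, at +0.36. Cpsf3, the nuclease that makes the histone mRNA end, stood at -0.55 (0.82 to 1.45 in R6/2, 1.38 to 1.97 in WT, limma adjusted p = 0.704), Cpsf2 at -0.66 and Upf1, a helicase of histone mRNA decay, at -0.21.

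Of 25 tested histone chaperone genes, 10 were positive and 15 negative (median -0.06), and 0 passed. Nap1l3 stood at +0.76 and Nap1l5 at +0.39, both of the nucleosome assembly protein family. Hjurp, the chaperone of the centromere histone, stood at +2.18 (-0.45 to 0.95 in R6/2, -5.47 to -0.37 in WT), and its other probes reached down to +0.43. Asf1b, which hands H3 and H4 on in dividing cells, stood at -0.86, Nap1l1 at -0.28, and Hira, which places H3.3, at -1.29 with its other probe at +0.74. For Nap1l1 every R6/2 array (2.98 to 3.13) lay below every WT array (3.20 to 3.52, limma adjusted p = 0.785). The groups of Hjurp overlapped. The 4 tested histone genes outside the name rule stood at +0.30 (H1fx), +0.59 (H1fnt), +0.18 (H1foo) and -0.41 (H1f0). For H1fx every R6/2 array (-2.22 to -1.88) lay above every WT array (-2.36 to -2.28, limma adjusted p = 0.772). H1f0 was detected on 2 R6/2 arrays and 2 WT arrays only.

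Genes of S phase and division, which in dividing cells run with the clustered histones, were split. Of 25 listed, 18 were tested, with 8 positive and 10 negative (median -0.03), and 0 passed. Tyms, a thymidylate synthase, stood at +1.16 (-3.87 to -2.12 in R6/2, -4.45 to -3.61 in WT, limma adjusted p = 0.637), Mcm4 at +0.30 and Cdk1 at +0.14. The replication helicase genes Mcm5 and Mcm7 stood at -0.65 and -0.81 and Ccnb2 at -0.44. Every R6/2 array lay below every WT array for Mcm5 (-1.27 to -0.46 in R6/2, -0.34 to 0.26 in WT, limma adjusted p = 0.684). The same held for Mcm7 (-0.47 to 1.15 in R6/2, 1.18 to 1.42 in WT, limma adjusted p = 0.704), while the groups overlapped for Tyms. The mean level of the list was -1.82 to -1.50 in R6/2 and -2.06 to -1.29 in WT, so that the groups overlapped in this mean.

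The authors' deposited table holds the authors' own test on their values. In it, 7 histone probes had a p-value under 0.05, all of them higher in R6/2, and 0 had a corrected p-value under 0.05. The 7 include Hist1h4j, Hist1h4d and Hist1h4k, whose probes share sequence and are not separate observations. The share of all probes under 0.05 in that table is not given here, so the 7 cannot be set against a background. The lowest corrected p-value there was 0.466, that of Hist1h4j, with an absolute fold change of 1.94 in the authors' deposited table.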

How the data were processed

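RNA of sorted MSNs (4 R6/2 and 4 WT arrays) was measured on 1-colour Agilent arrays. Per the file headers, Feature Extraction 10.7.3.1 gave each spot a processed intensity (background-subtracted and detrended), marks for signal well above background, saturation (0 histone probes) and outliers, and probe positions on mm9. The deposited whole-series table holds the authors' raw intensity values, their log2 values (relative to each array's 75th percentile, as a comparison with the raw values shows), and, per the file headers, the authors' p-value, corrected p-value and absolute fold change. It holds 55680 probes and served as an alternative only. In R6/2 replicate 3, 1 garbled line was left out (62974 of 62976 spots read). R6/2 replicate 4 is alone on slide 2.

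Spots marked as outliers were dropped, the processed intensity was log2-transformed, replicate spots were averaged and the array's 75th percentile over non-control probes was subtracted. The 41378 probes well above background on at least 4 of 8 arrays were fitted with limma 3.58.1 (lmFit and eBayes, two-sided, R 4.3.3), with Benjamini-Hochberg adjustment over all of them. The number of arrays limits the precision. Tested on simulated data for R6/2 minus WT (41378 probes), the fit recovered 51 of 100 probes changed by 2 log2 units and 78 of 100 changed by 3, with 7 false calls. Tables were made with Python 3.11.15, pandas 2.3.3 and numpy 2.4.6. Names and promoters are from RefSeq (GRCm38.p6), matched by accession, and its coordinates were not set against mm9.

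The members and lists were chosen with earlier results of these data known. Named are all replacement genes with a tested probe, in each clustered class the 3 probes with the highest level and the 2 with the smallest p in each direction, probes seen in 1 genotype only, probes whose groups do not overlap, the 3 list genes with the smallest p in each direction, and other probes of a named gene that differ by over 0.5. Probes named for their sequence, detection or matching letters were chosen after their values were seen. Alternatives were background correction, scaling, filter, probe choice, test, array weights, replicate block, slide, detection mark, current gene symbols (81 probes, 70 shared) and leaving out each array.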

Additional observations from a re-analysis of the deposited data

Results flagged for a closer look

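In 98 groups of 4 arrays (the levels of the named histone probes in each genotype), 7 held 1 array apart from the other 3 by Dixon's criterion at 95%, which by chance marks about 1 in 20 groups. In R6/2 replicate 3 the level was 3.28 for Hist1h2ah (2.91 to 2.95 on the other R6/2 arrays) and 3.42 for H2afj (3.09 to 3.12), whose probes share 29 bases. In R6/2 replicate 4, alone on its slide, it was 0.00 for an H2afv probe (0.76 to 0.83). In WT replicate 1 it was -2.89 for Hist1h4j (-2.40 to -2.34 on the other WT arrays). In WT replicate 2 it was 1.41 for an H3f3a probe (2.34 to 2.51). In WT replicate 3 it was 1.03 for Hist1h4d (1.39 to 1.43) and -6.42 for a Hist4h4 probe (-3.52 to -3.08), the last not well above background.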

How the results depend on the processing

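The count of histone probes past the adjusted threshold was 0 in both directions under all 23 alternatives, and their lowest adjusted p ranged from 0.113 (array weights) to 0.653. Over all tested probes 1 passed, against 8 with normexp, 7 with only probes detected on all 8 arrays, 2 with quantile normalization, 5 with the mean of a gene name's probes, 8 with array weights, 0 with the methods' t-test, 0 within the first slide and 0 to 3 with 1 array left out. The median of clustered probes (+0.18) was +0.08 with median scaling and 0.08 to 0.25 over its 23 alternatives; with 1 array left out it was 0.17 to 0.24. The replacement median ranged from -0.05 to 0.12, and the difference in detected histone probes from 2.00 to 7.25 over 11. Of 1011 values for 49 named probes, 1007 moved by less than the spread between replicates, and the other 4 were those of Hist1h2bq, Hist1h2bg, Hist1h4j and Hist1h3f with normexp, given above; the cause was not tested. With the replicate block, 0 histone probes and 0 of all probes passed (lowest adjusted p 0.634 for Hist1h2bq). Same-numbered arrays correlated in their deviations at 0.022, -0.043, 0.000 and -0.005. The labels do not say whether such arrays share anything beyond the number. Dim signal limits the probes near background, above all on WT replicate 1.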
